A study of Mus musculus with 2 samples.

Results

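Type 2 conventional dendritic cells (cDC2) were examined in 2 single-cell RNA libraries of mouse adrenal glands. The cells were chosen by counts of unique molecular identifiers (UMIs, 1 per captured transcript molecule). Among cells with at least 500 genes and at most 25% mitochondrial UMIs, a cDC2 had at least 2 UMIs of Flt3, Cd209a and Clec10a together and at least 50 UMIs of H2-Ab1. It had at most 1 UMI of Xcr1 and Clec9a together, under 10 UMIs of C1qa, C1qb and C1qc, under 10 UMIs of Ccr7, Fscn1 and Ccl22, and 0 UMIs each of Siglech, Cd3e and Cd79a. This gave 110 cDC2 of 19135 kept cells, 40 of 8608 at 6 weeks and 70 of 10527 at 9 weeks. The genes of this rule set who is a member, so their levels are given as a description only.

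Conventional dendritic cells take up antigen in tissues, process it and present peptides to T cells on MHC molecules. The type 1 lineage depends on the transcription factor Irf8 and is known for cross-presentation on MHC class I to CD8 T cells. The type 2 lineage depends on Irf4 and shares many lectins and integrins with monocytes. It is best known for presentation on MHC class II to CD4 T cells, and its cells are commonly recognised by Sirpa, Itgam (CD11b) and the lectins Cd209a, Clec10a and Mgl2.

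All cells came from female C57BL/6J mice of the genotype SF1-Cre+;Znrf3Fx/Fx, at 6 weeks of age (2 adrenals pooled) or 9 weeks of age (3 adrenals pooled). SF1-Cre is active in steroid-producing cells, where it deletes Znrf3, a ubiquitin ligase that removes Wnt receptors, so the dendritic cells of these mice are not the cells targeted. No gland with intact Znrf3 was analysed here, and the series describes the earlier age as cortical hyperplasia and the later one as regression after senescence. There was 1 library per age, made from sorted viable cells after red cell lysis, so age, the pool of glands and the library cannot be told apart, no test across libraries was possible and every interval covers counting error only.

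The libraries held 97001752 UMIs at 6 weeks and 99728879 UMIs at 9 weeks. The cDC2 contributed 382330 and 650800 of these, and the median cDC2 held 8934 UMIs from 2488.5 genes at 6 weeks and 8915 UMIs from 2541.5 genes at 9 weeks. Depth per cDC2 was therefore close between the ages, although over all kept cells the medians were 12057.5 and 7414 UMIs. Of the kept cells, 27 barcodes occurred in both libraries, and none of these was a cDC2 in both. Levels below are a gene's UMIs over all cDC2 of 1 library per 1000000 of their UMIs (CPM), with exact Poisson 95% intervals in parentheses.

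The genes of the rule had these values in the members, which the choice itself fixes in part. Cd209a, which encodes a C-type lectin of the DC-SIGN family, had a UMI in 38 of 40 cDC2 at 6 weeks and in 67 of 70 at 9 weeks. Clec10a, a lectin that binds galactose-type sugars, had one in 24 and 50 cells, and Flt3, the receptor of the dendritic cell growth factor Flt3 ligand, in 18 and 35. All 3 genes were found together in 10 and 25 cells. The summed Cd209a level was 1085 (984 to 1195) CPM at 6 weeks and 1497 (1404 to 1594) CPM at 9 weeks, that of Clec10a 322 (267 to 384) and 398 (351 to 449.5) CPM, and that of Flt3 70.6 (46.5 to 103) and 64.5 (46.5 to 87.2) CPM. Cd209a lies at chr8:3743397-3748984 on the minus strand of mm10. Clec10a (chr11:70156197-70170834) and its close paralog Mgl2 (chr11:70130329-70137550) are neighbours on the plus strand of chromosome 11, so reads could be split between them and their separate levels are uncertain.

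Markers outside the rule were set beside the label, and several of them are compared with cDC1 below. S100a4, which encodes a calcium-binding protein of motile myeloid cells, had a UMI in 39 of 40 and 67 of 70 cDC2. Ccl9, a chemokine of myeloid cells, had one in 30 and 47. In monocytes S100a4 was found in 73 of 75 and 156 of 164 cells, and Ccl9 in 61 and 131. These markers therefore do not separate cDC2 from monocytes. Few cells lay close to the thresholds of the rule. There was 1 member at exactly 2 UMIs of Flt3, Cd209a and Clec10a at 6 weeks and 2 at 9 weeks, against 28 and 55 members with 10 or more. Cells that missed only this criterion with 1 UMI numbered 5 and 2. For H2-Ab1, 2 members at 6 weeks and 1 at 9 weeks had 50 to 59 UMIs, while 3 and 2 cells missed only this criterion with 40 to 49 UMIs. Cells barred only by Xcr1 and Clec9a numbered 63 and 451 and had a median of 13 and 18 UMIs of these genes, and 1 and 2 of them had a Cd209a UMI. Cells barred only by C1q numbered 16 and 63, and 7 and 16 of them had a Cd209a UMI.

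Markers of most other cell types were low in most cDC2, with exceptions in single cells. The 18 monocyte markers were the exception as a list, with 2485 CPM at 6 weeks and 3559 CPM at 9 weeks. Their median was 15 and 16.5 UMIs per cell, and the highest cells had 150 and 500 UMIs. Of 16 cDC1 markers, the summed level was 1153 CPM at 6 weeks and 969.6 CPM at 9 weeks, most of it from Id2, which many leukocytes express. Of 14 T and NK markers the cDC2 had 81.1 and 117 CPM, with 8 and 5 genes at 0 UMIs. The 9 B cell markers summed to 188 and 206 CPM, and Cd79a, which the rule bars, and Ms4a1 were at 0. The 12 adrenocortical genes summed to 2166 and 1179 CPM, with a median of 2 UMIs per cell at both ages and highest cells of 552 and 375 UMIs. The 10 endothelial genes summed to 285 and 111 CPM. A few members thus carried RNA of a second cell type. Members with at least 20 UMIs of 5 cortical genes, 10 UMIs of 5 endothelial genes or 20 UMIs of S100a8 and S100a9 numbered 5 at 6 weeks and 4 at 9 weeks, and a doublet caller marked 3 and 4 of these. They are called mixed members here, a definition made after the data were seen, and results that rest on them are given without them too. The definition holds no monocyte genes, and the cells highest in monocyte markers, with 150 and 500 UMIs, are not mixed members.

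The cDC2 made up 0.465% of kept cells at 6 weeks (exact Clopper-Pearson 95% interval 0.332 to 0.632) and 0.665% at 9 weeks (0.519 to 0.839). The intervals overlapped and the ratio of 1.43 had a range of 0.82 to 2.53, so no change in the share of cDC2 was detectable at this number of cells. Over the same libraries the share of cDC1, taken by at least 2 UMIs of Xcr1 and Clec9a, went from 1.68% (1.42 to 1.98) to 7.59% (7.09 to 8.11), a ratio of 4.51 with a range of 3.58 to 5.70. The cDC2 were 20.9% (15.4 to 27.4) of 191 conventional and mature dendritic cells at 6 weeks and 7.97% (6.27 to 9.97) of 878 at 9 weeks. There were 3.62 cDC1 per cDC2 at the earlier age and 11.4 at the later one. Mature dendritic cells with at least 10 UMIs of Ccr7, Fscn1 and Ccl22 were few, at 6 and 9 cells.

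Set against other myeloid classes, the shares of cDC2 had overlapping intervals. They were 34.8% (26.1 to 44.2) of cDC2 and monocytes together at 6 weeks and 29.9% (24.1 to 36.2) at 9 weeks, and 3.69% (2.65 to 5.00) and 2.82% (2.20 to 3.55) of cDC2 and C1q macrophages together. Shares of kept cells depend on all other classes: adrenocortical cells were 49.2% of kept cells at 6 weeks and 18.2% at 9 weeks, and the sort could also set shares. The part of these in the cDC2 share was not tested.

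**Figure D1:**
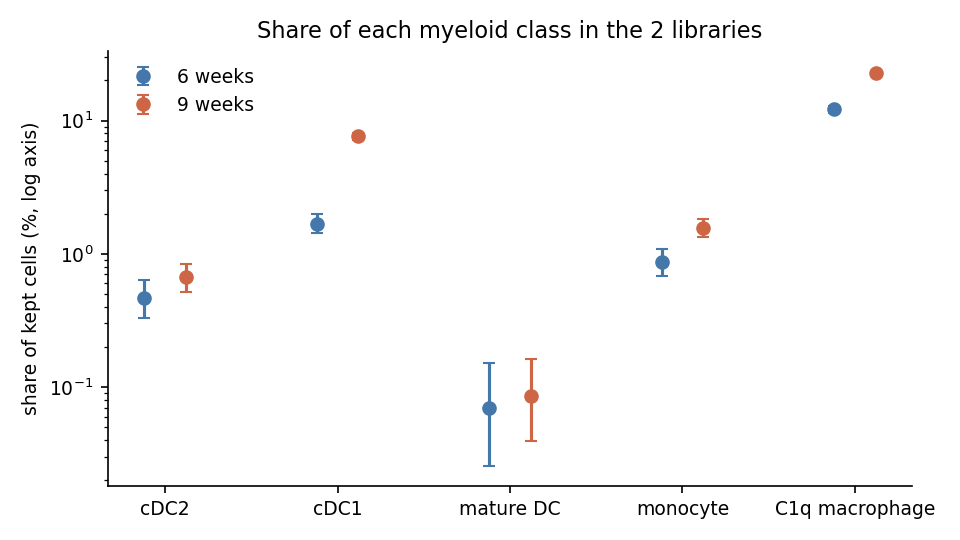
Share of kept cells (%, log axis) of 5 myeloid classes at 6 weeks (blue) and 9 weeks (orange), as points with exact Clopper-Pearson 95% intervals from 1 library each. The intervals of cDC2 overlap (0.465% and 0.665%), while those of cDC1 (1.68% and 7.59%) lie apart.

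Many genes set the cDC2 apart from cDC1 of the same libraries in both samples, though several of them were as high or higher in monocytes or macrophages. The classes were split by UMIs of Flt3, Cd209a, Clec10a, Xcr1 and Clec9a, so these genes are no finding, and other genes are given as levels with no test. By a rule applied at both ages (at least 2-fold on the scale of CPM plus 5, at least 50 CPM, and at least 20% of the level in every other class), 116 genes stood higher in cDC2 and 98 in cDC1. S100a4 had 2259.8 and 1023 CPM in cDC2 at 6 and 9 weeks against 28 and 5.68 CPM in cDC1. Mgl2 had 732 and 1008 CPM against 10.6 and 1.36 CPM. Hpgd, the enzyme that inactivates prostaglandin E, had 204 and 416 CPM against 0.44 and 1.44 CPM. Itgam, the CD11b integrin chain, had 165 and 221 CPM against 1.77 and 5.68 CPM. Each of these was higher in cDC2 at both ages, with Poisson intervals apart.

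Further genes among the largest ratios were Ms4a4c (324 and 407 CPM in cDC2, 6.21 and 6.14 CPM in cDC1), the whey acidic protein family member Wfdc17, the chemokine Ccl9 (275 and 179.8 CPM, 5.32 and 2.20 CPM), the lectin Clec4b1, the actin-capping protein Capg and S100a6 (1595 and 1242 CPM, 66.6 and 55.6 CPM). In the other direction, Irf8 stood at 73.2 (48.7 to 106) and 43 (28.6 to 62.2) CPM in cDC2 and at 1684 and 1789 CPM in cDC1. Cadm1, an adhesion molecule of cDC1, had 10.5 and 10.8 CPM in cDC2 against 315 and 377 CPM. Tlr3, the receptor of double-stranded RNA, had 15.7 and 21.5 CPM against 239 and 332 CPM. Irf4, the regulator of the type 2 lineage, was low in level but ordered the other way, at 39.2 (22 to 64.7) and 46.1 (31.1 to 65.8) CPM in cDC2 and 1.33 and 0.61 CPM in cDC1.

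Some genes were shared with cDC1 and others with monocytes or macrophages. Zbtb46, a transcription factor restricted among leukocytes largely to conventional dendritic cells, stood at 41.8 and 49.2 CPM in cDC2 and 39.5 and 51.3 CPM in cDC1, and at 1.44 to 4.13 CPM in monocytes and C1q macrophages. S100a4 was also high in monocytes (2338 and 1578 CPM), and Klf4, a regulator of a cDC2 subset, had 144 and 131 CPM in cDC2 and 121 and 134 CPM in monocytes. Ms4a4c (770 and 905 CPM), Wfdc17 (636 and 793 CPM) and Ccl9 (436 and 383 CPM) were higher in monocytes than in cDC2. So were Capg (440 and 374 CPM) and S100a6 (1718 and 1809 CPM). Hpgd was higher in C1q macrophages (497 and 674 CPM). Mgl2 and Clec4b1 were lower in monocytes and in C1q macrophages than in cDC2. Csf1r, the receptor of macrophage colony-stimulating factor, had 83.7 and 112 CPM in cDC2, 8.87 and 5.68 CPM in cDC1 and 622 and 562 CPM in C1q macrophages. Adgre1, which encodes the macrophage antigen F4/80, had 1 UMI in the cDC2 at 6 weeks and 4 UMIs at 9 weeks, and Mertk, Folr2 and Lyve1 had none. Tbx21 and Clec4a4, markers of 2 cDC2 subsets in lymphoid organs and gut, were also at 0 UMIs in both libraries, which allows up to 7.85 and 4.61 CPM, the level of 3 UMIs.

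Klrd1, which encodes the CD94 chain of NK cell lectin receptors, was a frequent transcript of these cDC2. With each cell thinned to 4000 UMIs, 77.5% (61.5 to 89.2) of 40 cDC2 at 6 weeks and 68.7% (56.2 to 79.4) of 67 cDC2 at 9 weeks had a Klrd1 UMI, with 0 and 3 shallower cells left out. The share without thinning was 92.5% and 82.9%. In cDC1 it was 19.6% and 10.7%, in C1q macrophages 0.82% and 1.30%, in adrenocortical cells 0.07% and 0.05%, and in NK cells 90.6% and 94.9%, all after thinning. Klrd1 was thus found in most cDC2, and the part of free RNA in these shares was not tested. Of other NK genes, Ncr1 and Klrb1c were at 0 UMIs in the cDC2, and Nkg7 was found in 1 cell per library.

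**Figure D2:**
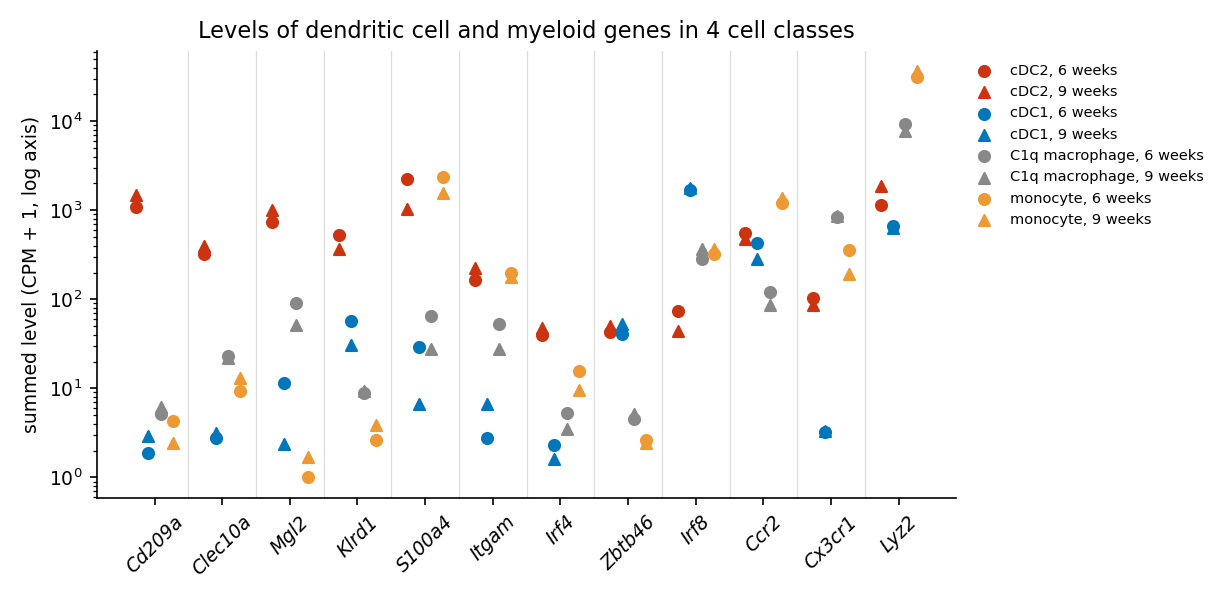
Summed level (CPM plus 1, log axis) of 12 genes in cDC2, cDC1, C1q macrophages and monocytes at 6 weeks (circles) and 9 weeks (triangles), 1 library per age. Cd209a and Clec10a chose the cDC2. S100a4 is high in both cDC2 and monocytes, Klrd1 is highest in cDC2, and Irf8 is lower in cDC2 (73.2 and 43.0 CPM) than in the other 3 classes.

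Among themselves the cDC2 differed in Mgl2, among other genes. A UMI of Mgl2 was found in 25 of 40 cells at 6 weeks and 53 of 70 at 9 weeks, and its highest cells had 29 and 35 UMIs. The cells without Mgl2 were deeper at 6 weeks, with a median of 9310 UMIs against 8729 with Mgl2. At 9 weeks they were shallower, with 8375 against 9038. The part of depth in the lack of an Mgl2 UMI was not tested. Splitting the cDC2 by this gene, a choice made after the values were seen, left 7 other genes that were at least 2-fold apart in the same direction with intervals apart at both ages and with no cell holding over 50% of their UMIs on the higher side. These were 3 genes higher with Mgl2 (0.031%) and 4 higher without it (0.0413%) of 9675 genes with a UMI in cDC2 of both ages. The age groups serve here as separate samples, and no test was made.

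Axl, a receptor tyrosine kinase for dead-cell bridging proteins, had 133 and 28.2 CPM with and without Mgl2 at 6 weeks and 96.3 and 21.2 CPM at 9 weeks. Cd33, a sialic acid lectin, had 133 and 14.1 CPM with and without Mgl2 at 6 weeks and 175 and 42.3 CPM at 9 weeks. Hpgd had 262 and 106 CPM, then 493 and 141 CPM. Axl, Cd33 and Hpgd were thus on the side of Mgl2. Without Mgl2, Axl was found in 3 cells at 6 weeks and 2 at 9 weeks, and Cd33 in 2 and 4 cells. Plac8, which is high in monocytes, plasmacytoid cells and dendritic cell precursors, went the other way, with 70.7 and 493 CPM with and without Mgl2 at 6 weeks and 80.5 and 1333 CPM at 9 weeks. Without Mgl2 it was found in 11 cells at 6 weeks and 9 cells at 9 weeks. The highest of these at 9 weeks had 54, 54 and 52 UMIs of Plac8. Those with 54 also had 348 and 108 UMIs of Lyz2. Klf2, a factor of quiescence and trafficking, had 25 and 162 CPM, then 31.4 and 134 CPM. The interferon-inducible Ifi203 had 91.5 and 429.7 CPM, then 128 and 282 CPM, and its relative Ifi211 had 4.16 and 77.5 CPM, then 17.7 and 70.5 CPM. Ifi211 was found in few cells, 1 with and 5 without Mgl2 at 6 weeks and 5 and 4 at 9 weeks.

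Cd209a, S100a4 and H2-Ab1 were high on both sides of this split. Cd209a had 1173 and 937 CPM with and without Mgl2 at 6 weeks and 1727 and 670.0 CPM at 9 weeks. Ccr2, the receptor of the monocyte chemokine Ccl2, had 341 and 923 CPM, then 413 and 691 CPM. The summed monocyte markers were higher without Mgl2 at both ages, while Lyz2 and Ly6c2 had overlapping intervals at 6 weeks. The 18 monocyte markers, Plac8 among them, summed to 1988 CPM with and 3325 CPM without Mgl2 at 6 weeks, and to 2022 and 9077 CPM at 9 weeks. Lyz2 had 1115 and 1233 CPM at 6 weeks and 833 and 5487 CPM at 9 weeks, with 44.7% of the last in 1 cell. The highest cells without Mgl2 at 9 weeks had 348, 193 and 108 UMIs of Lyz2, against a median of 5 over all cDC2 of that age. Ly6c2 had 16.6 and 14.1 CPM at 6 weeks and 29.5 and 536 CPM at 9 weeks, with 63.2% of the last in 1 cell. Mixed members were on both sides at 6 weeks, 3 with and 2 without Mgl2, and on the side of Mgl2 at 9 weeks, 4 against 0. The part of the monocyte markers and the mixed members in the split was not tested.

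**Figure D3:**
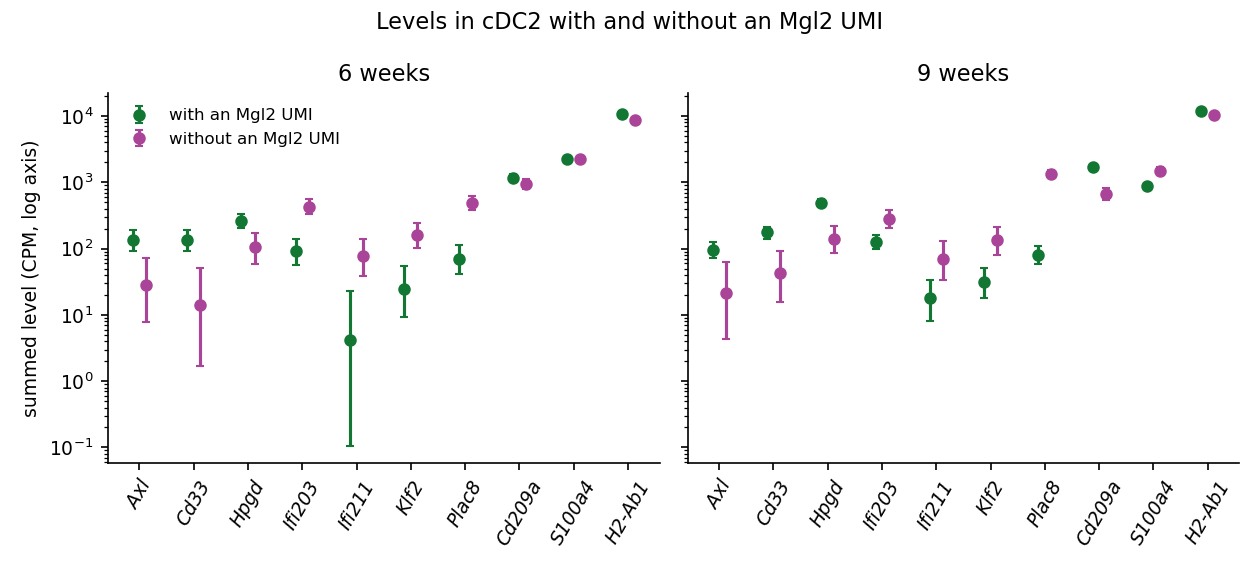
Summed level (CPM, log axis) of 10 genes in cDC2 with an Mgl2 UMI (green) and without one (purple) at 6 weeks (left) and 9 weeks (right), with exact Poisson 95% intervals. Axl, Cd33 and Hpgd are higher with Mgl2 and Ifi203, Ifi211, Klf2 and Plac8 higher without it at both ages, while H2-Ab1 lies between 8736 and 11886 CPM on both sides.

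Between the ages, the cDC2 transcriptome differed in a limited set of genes. Of 5524 genes with at least 20 CPM in 1 library and 20 UMIs over both, 117 were called higher at 9 weeks (2.12%) and 68 lower (1.23%), called meaning at least 1.5-fold on the scale of CPM plus 5 with Poisson intervals apart. The median log2 ratio over all these genes was 0.04. Without the mixed members 109 genes of 4851 were called higher and 26 lower, of which 87 and 16 were also called among all members. For 31 of the 185 called genes, over 50% of the UMIs at the higher age lay in 1 cell. Most genes called lower were thus not called once the mixed members were left out, while most genes called higher were.

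The largest group on the higher side was presentation on MHC class I. Of 23 tested genes of this pathway, 8 were higher and 0 lower, 22 had a positive log2 ratio and the median was 0.63, against 0.04 over all genes tested. Without mixed members 8 were called higher, 6 of them the same genes beside H2-T22 and Psmb10, and the median was 0.59. H2-K1, a classical class I heavy chain, had 2 to 32 UMIs per cell at 6 weeks (median 9) and 4 to 66 UMIs at 9 weeks (median 18). Its summed level was 1109 (1006 to 1219.7) CPM and 2096 (1986 to 2210.1) CPM, a log2 ratio of 0.92 with a range of 0.70 to 1.13. The cells of the ages overlapped, but the median cell at 9 weeks, 19.8 UMIs per 10000, lay above the upper quartile at 6 weeks, 15.1. H2-D1, the second classical heavy chain, had 1567 (1444 to 1697) and 2428 (2309.5 to 2551) CPM, and the nonclassical H2-Q4 and H2-Q7 had 57.5 and 135 CPM and 133 and 289 CPM at 6 and 9 weeks. Class I heavy chains are near-copies of each other, so reads could be split among them and their separate levels are uncertain.

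Of the class I loading machinery, some genes were called. Tapbp, which encodes tapasin, the bridge between class I and the peptide transporter, rose from 88.9 (61.6 to 124) CPM, with a UMI in 17 of 40 cells, to 203 (169.7 to 241) CPM, with a UMI in 59 of 70. Its relative Tapbpl rose from 5.23 (0.63 to 18.9) to 49.2 (33.6 to 69.4) CPM. Pdia3, the disulfide isomerase of the loading complex, rose from 353 (296 to 418) to 589 (531 to 650.5) CPM, and Psmb9, a subunit of the immunoproteasome, from 309 (255 to 369.6) to 472 (420.4 to 528) CPM. The invariant chain of class I, B2m, had 1687 (1559 to 1822) and 2396 (2278 to 2517) CPM, a log2 ratio of 0.50 that was under 1.5-fold. The peptide transporter genes Tap1 (109.9 and 124 CPM) and Tap2 (54.9 and 78.4 CPM) and the chaperones Calr and Canx were not called. Without mixed members H2-D1 (log2 ratio 0.58) and Psmb9 (0.57) were no longer called.

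The same 23 genes had a median log2 ratio of 0.12 in cDC1, with 0 called higher, 0.48 in C1q macrophages with 7 higher, and 0.48 in monocytes (22 genes tested) with 7 higher. H2-K1 had 1564 and 1696 CPM in cDC1, and Tapbp 159 and 151 CPM. At 6 weeks the cDC2 were below the cDC1 in H2-K1 and Tapbp, and at 9 weeks above them. Whether the age difference differs between these classes was not tested, since each age had 1 library.

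**Figure D4:**
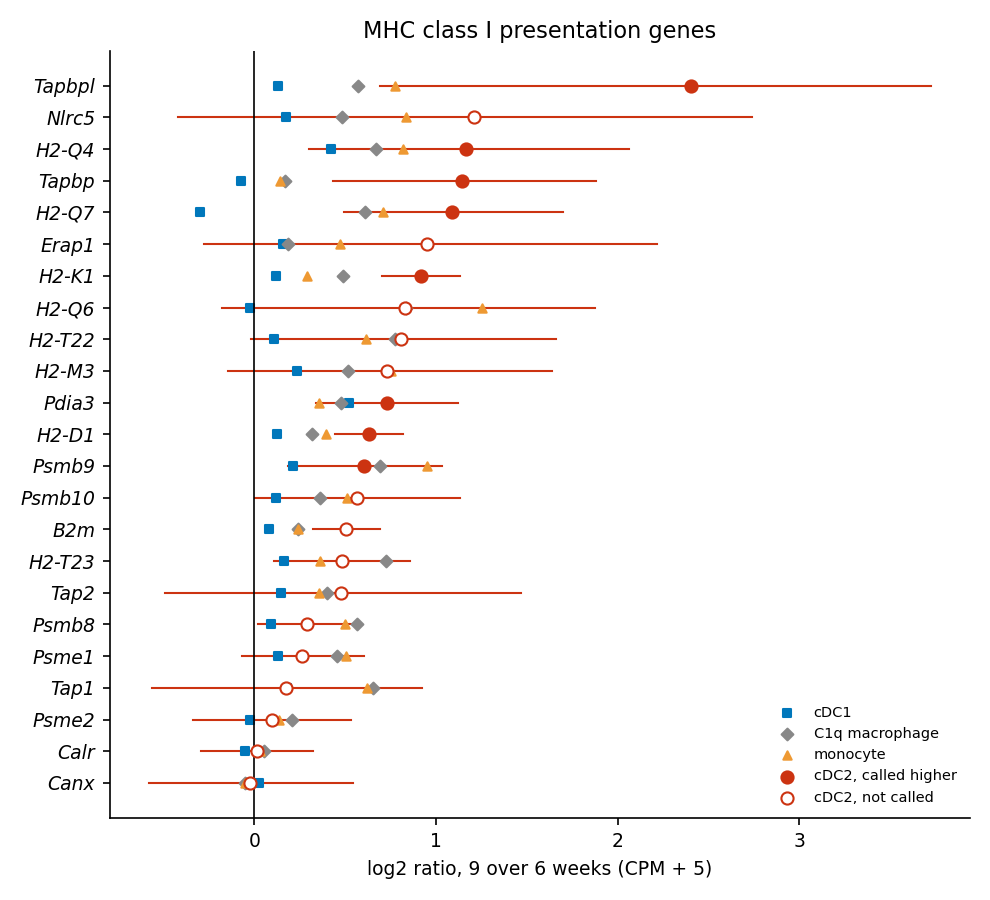
Log2 ratio of 9 over 6 weeks (CPM plus 5) of 23 MHC class I presentation genes in cDC2 (circles, filled where called higher, lines from the bounds of both Poisson intervals), cDC1 (squares), C1q macrophages (diamonds) and monocytes (triangles). In cDC2 22 of 23 genes lie above 0, with a median of 0.63, against 0.12 in cDC1.

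Genes of the interferon response showed a smaller difference. Of 42 tested, 4 were higher and 0 lower, 34 were positive and the median log2 ratio was 0.44. Irf1, a transcription factor induced by interferon gamma, rose from 31.4 (16.2 to 54.8) to 104 (81.1 to 132) CPM (8 of 40 and 39 of 70 cells). Gbp2, a guanylate-binding protein of cell-autonomous defence, rose from 23.5 (10.8 to 44.7) to 79.9 (59.7 to 105) CPM, with 3 of 40 and 29 of 70 cells, and 77.8% of its 6-week UMIs lay in 1 cell. With the rule applied to thinned cells, which left 13 and 33 cDC2, the log2 ratio of Gbp2 was -0.80. Ly6e, a surface protein of the interferon response, rose from 1033 (934 to 1140.2) to 1841 (1738 to 1948) CPM. Of the interferon receptors, Ifngr1 rose from 275 (225 to 332) to 476 (425 to 532) CPM, while Ifngr2 (123 and 108 CPM), Ifnar1 (86.3 and 56.9 CPM) and Ifnar2 (139 and 131 CPM) were not called.

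Genes typical of type I interferon were not among the calls. Ifit3 had 44.5 and 39.95 CPM, Irf7 26.2 and 26.1 CPM, Isg15 57.5 and 98.3 CPM and Ifi27l2a 552 and 661 CPM at 6 and 9 weeks. In cDC1, 0 of 29 tested interferon genes were higher and 4 lower, with a median log2 ratio of 0.01. C1q macrophages had 13 higher and 2 lower of 49 (median 0.46) and monocytes 11 higher and 0 lower of 49 (median 0.38).

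The promoter of Gbp2 is printed because the gene was called, encodes an interferon-induced protein and had a match in the search below. RefSeq promoters of 250 bases before to 50 after the start (GRCm38.p6) were searched for the core of the interferon-stimulated response element, GAAANNGAAA or on the other strand TTTCNNTTTC. Capitals mark the match, 5′ to 3′ on the plus strand, at chr3:142620413-142620712.
Gbp2: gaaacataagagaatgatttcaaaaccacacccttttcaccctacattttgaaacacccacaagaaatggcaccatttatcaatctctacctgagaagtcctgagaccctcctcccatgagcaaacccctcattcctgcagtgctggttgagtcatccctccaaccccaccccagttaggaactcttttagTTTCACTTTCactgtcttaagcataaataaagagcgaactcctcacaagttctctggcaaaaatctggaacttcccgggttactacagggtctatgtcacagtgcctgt
The response element core was present in 3.99% of the promoters of all 27025 genes, in 4.74% of 4469 matched tested genes and in 7.45% of 94 matched genes called higher (7 genes), and in 1 of 51 matched genes called lower. In the interferon list 18 of 33 matched tested genes had it, 54.5%, and in the class I list 5 of 20, but none of the 7 matched class I genes called higher. Irf1, which was also called, had no match to this core but had a match to a second motif searched for, TTCNNNGAA. That motif was present in 9.55% of all promoters, in 7.79% of matched tested genes and in 10.6% of matched genes called higher. It was present in 1 of 51 matched genes called lower. A match describes letters and not a bound site.

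MHC class II, the main presentation route of cDC2, gave few calls. Since the rule used H2-Ab1, the level of that gene is a description (9897 (9584 to 10218) and 11556 (11297 to 11821) CPM). Of 19 tested class II pathway genes 2 were higher and 0 lower, with a median log2 ratio of 0.22. Cd74, the invariant chain, was the most abundant of them with 23603 (23118 to 24095) and 31667 (31236 to 32102) CPM, and H2-Aa had 9107 (8807 to 9415) and 11120.2 (10865 to 11379) CPM. The transactivator Ciita had 241 and 275 CPM. H2-Oa, part of H2-O, which restrains peptide loading by H2-DM, rose from 173 (134 to 219.6) to 343 (299 to 391) CPM. Ctss, the protease that trims the invariant chain, rose from 939 (844 to 1041) to 1419.8 (1329.7 to 1514) CPM, but without mixed members its log2 ratio of 0.52 was not called. Ciita levels were near those of cDC1 (232 and 276 CPM) and above those of monocytes (29.7 and 29.4 CPM).

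Fc receptors were a second group with many calls on the higher side. Of 11 tested Fc and complement receptor genes 4 were higher and 0 lower, with a median log2 ratio of 0.24, while 2.12% of all genes tested were higher. Without mixed members 3 of 10 tested were higher. Of the 4, Fcgr1 is also in the lists of macrophage and monocyte markers below. Fcgr3, the activating receptor for immune complexes, rose from 39.2 (22 to 64.7) CPM in 10 of 40 cells to 146 (118 to 178) CPM in 45 of 70 cells. Fcgr4, an activating receptor for IgG2 antibodies, rose from 10.5 (2.85 to 26.8) CPM in 3 cells to 87.6 (66.3 to 113) CPM in 31 cells. Fcgr1, the high-affinity receptor, rose from 28.8 (14.4 to 51.5) to 73.8 (54.4 to 97.8) CPM. The inhibitory Fcgr2b rose from 186 (145 to 234) to 318 (276 to 364) CPM, though without mixed members its log2 ratio of 0.46 was not called. The shared signalling chain Fcer1g had 1465 and 1726 CPM and the neonatal receptor Fcgrt 112 and 95.3 CPM, both not called.

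These receptors are also macrophage genes, so macrophage markers are set beside them. After thinning to 4000 UMIs, Fcgr4 had a UMI in 5.00% (0.61 to 16.9) and 40.3% (28.5 to 53) of cDC2, in 1.40% and 2.26% of cDC1, in 12.5% and 10.8% of monocytes and in 54.9% and 82.1% of C1q macrophages. Of 9 tested macrophage markers in cDC2, 3 were higher (C1qb, which the rule limits, Fcgr1 and Apoe) and 0 lower, with a median log2 ratio of 0.48. Summed over the 16 markers the level was 680.0 CPM at 6 weeks, with 1 to 40 UMIs per cell, and 962 CPM at 9 weeks, with 0 to 76. Mertk, Folr2 and Lyve1 were at 0 at both ages, and C1qb rose from 7.85 (1.62 to 22.9) to 44.6 (29.8 to 64) CPM under the rule's limit on C1q. A C1q UMI was found after thinning in 5.00% and 22.4% of cDC2 at 6 and 9 weeks. It was also found in 5.56% and 15.3% of monocytes and in 3.27% and 10.7% of adrenocortical cells. The part of the macrophage markers in the Fc receptor levels was not tested. The 2 genes Fcgr3 and Fcgr4 lie close together on chromosome 1 (chr1:171051174-171064935 and chr1:171018920-171029761), and reads of such related receptors could be split between them, so their separate levels are uncertain.

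Markers of monocytes rose in part. Of 11 tested, 4 were higher and 0 lower, with a median log2 ratio of 0.71. Lyz2, the lysozyme of myeloid cells, had 1159 (1053 to 1272) and 1847 (1744 to 1954) CPM, but its median per cell was 6 UMIs at 6 weeks and 5 at 9 weeks, and its highest cell at 9 weeks had 348 UMIs. Ly6c2, the antigen of classical monocytes, had 15.7 (5.76 to 34.2) and 139.8 (113 to 172) CPM, and 48 of its 91 UMIs at 9 weeks lay in 1 cell. Plac8 had 228 (182 to 281) and 353 (309 to 402) CPM, in 14 of 40 and 16 of 70 cells. Ccr2, which cDC2 and monocytes share, had 557 (485 to 637) and 473 (422 to 529) CPM and was not called. The fourth higher gene was Fcgr1, described above, and Plac8 was not called once its highest cell was left out.

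Among genes named by their ratio, most of those higher at 9 weeks were found in many cells. The 12 largest that passed the limits on level and cells were Hist1h2ae, Tox4, Ube2c, Kat6a, Fcgr3, Ddit4, Tsc22d2, Irf1, Xdh, Gbp2, Hacd4 and Glrx. Tox4, a nuclear protein of a phosphatase complex at chromatin, rose from 7.85 (1.62 to 22.9) CPM in 3 of 40 cells to 64.5 (46.5 to 87.2) CPM in 28 of 70, a log2 ratio of 2.44. It had 50.6 and 70.9 CPM in cDC1 and 58.6 and 67.3 CPM in C1q macrophages. Kat6a, a histone acetyltransferase, rose from 18.3 (7.36 to 37.7) to 76.8 (57 to 101) CPM. Ddit4, a stress-induced inhibitor of mTORC1 that glucocorticoids also induce, rose from 41.8 (23.9 to 68) CPM in 10 of 40 cells to 143 (115 to 175) CPM in 40 of 70, while cDC1 had 7.10 and 19.4 CPM and C1q macrophages 12.8 and 24.1 CPM.

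Xdh, which makes uric acid, rose from 18.3 (7.36 to 37.7) to 64.5 (46.5 to 87.2) CPM, the fatty acid elongation enzyme gene Hacd4 from 23.5 (10.8 to 44.7) to 79.9 (59.7 to 105) CPM, and Glrx, a glutaredoxin, from 34 (18.1 to 58.1) to 111 (86.6 to 139) CPM. Tsc22d2, of the family of the glucocorticoid-induced Tsc22d3, rose from 13.1 (4.25 to 30.5) to 50.7 (34.9 to 71.2) CPM. Each of these was higher in level and in the share of cells with a UMI. Ly6a, which encodes the surface protein Sca-1 and was picked after its values were seen, rose from 102 (72.5 to 139) CPM in 7 of 40 cells to 515 (461 to 573) CPM in 49 of 70. After thinning it was found in 12.5% and 62.7% of cDC2, 35.7% and 54.2% of cDC1, 14.4% and 55.1% of C1q macrophages and 12.5% and 16.6% of monocytes. The intervals were apart between ages in cDC1 and C1q macrophages as well, and overlapped in monocytes. The highest cDC2 had 53 UMIs of Ly6a.

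On the lower side, S100a4 fell from 2259.8 (2112 to 2416) CPM at 6 weeks to 1023 (947 to 1104) CPM at 9 weeks, a log2 ratio of -1.14 with a range of -1.35 to -0.93. The median cell had 20.3 UMIs per 10000 at 6 weeks and 10.0 at 9 weeks, and the ages overlapped. Lgals1, which encodes galectin-1, fell from 664 (585 to 751) to 295 (255 to 339.8) CPM, with medians of 3.83 and 1.99 UMIs per 10000. Ccl9 fell from 275 (225 to 332) to 179.8 (149 to 215) CPM. All 3 were also lower without mixed members, with log2 ratios of -1.14, -1.05 and -0.70, but Ccl9 was not called without its highest cell. In other classes S100a4 had 2338 and 1578 CPM in monocytes, 699.6 and 206 CPM in NK cells and 64.8 and 26.7 CPM in C1q macrophages at 6 and 9 weeks. Of 25 tested S100 and cytoskeletal genes, 2 were higher (S100a8 and S100a9) and 2 lower (S100a4 and Lgals1), and the median was -0.18. S100a6 (1595 and 1242 CPM), Vim (1514 and 1036 CPM) and S100a10 (1091 and 1459.7 CPM) were not called.

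Other genes named as lower at 9 weeks were Tcof1, a factor of ribosomal RNA synthesis (83.7 and 33.8 CPM), Oxct1, an enzyme of ketone use (128 and 56.9 CPM), the cell cycle kinase Cdk4 (91.5 and 39.95 CPM), Tsen34 (83.7 and 36.9 CPM), Mrpl28 (133 and 63 CPM), Chchd10, Wnt4, Ly6d and Ecrg4. Tcof1 and Oxct1 were called without mixed members as well. Cdk4 and Mrpl28 were not, though their log2 ratios went only from -1.10 to -0.98 and from -1.03 to -0.90. Those of Tsen34 and Chchd10, also not called then, went from -1.08 to -0.65 and from -2.98 to -0.89. Only 11 genes met the limits of naming on this side. Ly6d (806 and 16.9 CPM) and Ecrg4 (772 and 9.22 CPM) were single-cell signals: 305 of 308 Ly6d UMIs and 290 of 295 Ecrg4 UMIs at 6 weeks lay in 1 cell each. Wnt4, a signal of the outer cortex, was found in 6 cells at 6 weeks and 1 cell at 9 weeks (157 and 12.3 CPM). Without mixed members it had 19.7 and 0 CPM and was not called. Adrenocortical genes gave 5 of the lower calls among 8 tested (Star, Cyp11a1, Cyp11b1, Cyp21a1 and Fdx1), with a median log2 ratio of -0.80. Without the mixed members 1 of 3 tested was lower, and the summed level of the 12 genes was 262 and 197 CPM.

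**Figure D5:**
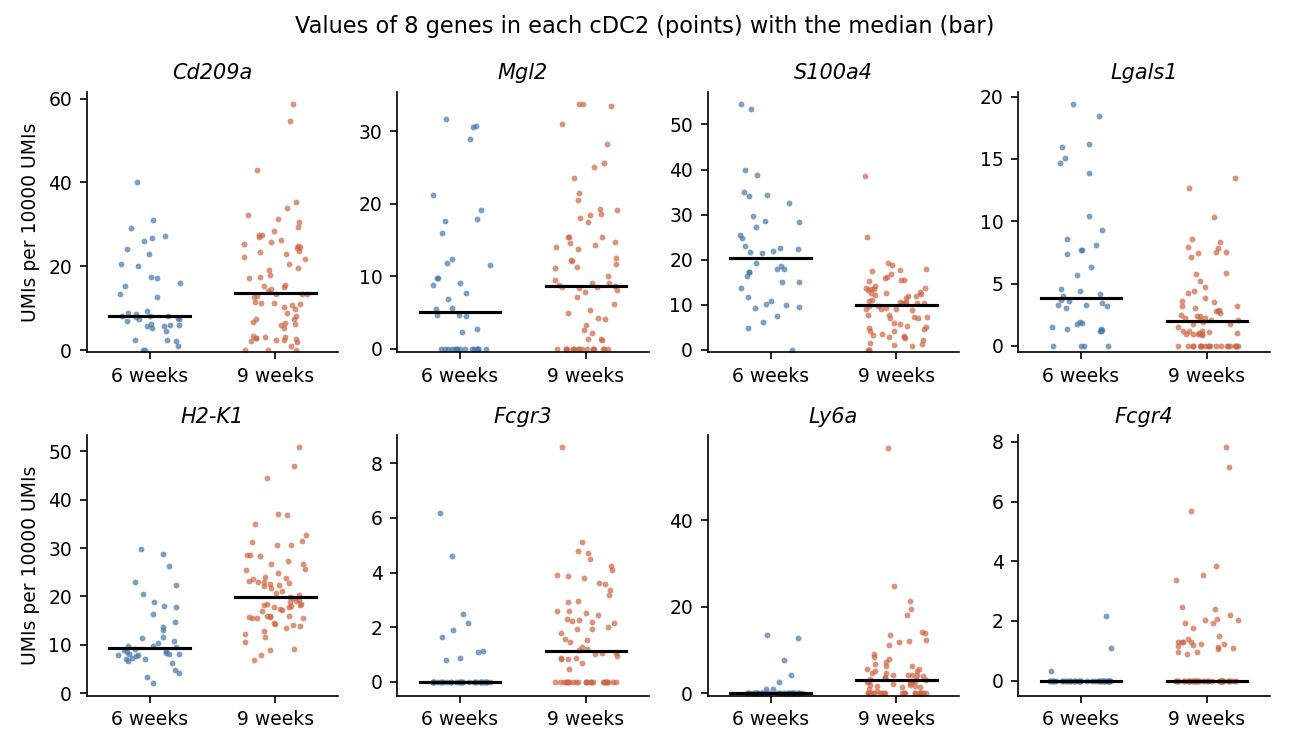
UMIs per 10000 UMIs of 8 genes in each of 40 cDC2 at 6 weeks (blue) and 70 cDC2 at 9 weeks (orange), with the median as a bar. S100a4 and Lgals1 are lower and H2-K1, Fcgr3 and Ly6a higher in the median cell at 9 weeks, with overlap between ages in each, and Fcgr4 is at 0 in 37 of 40 and 39 of 70 cells. Cd209a chose the cells.

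Growth factor and cytokine receptors gave few calls, with 1 of 19 tested higher (Ifngr1), 0 lower and a median of 0.24. Csf2ra, the chain of the GM-CSF receptor, had 154 and 192 CPM and Csf2rb 75.9 and 70.7 CPM. Il4ra, which senses interleukins 4 and 13, had 18.3 and 53.8 CPM in 7 of 40 and 29 of 70 cells and was not called. Of 24 tested transcription factors of dendritic cells 1 was higher, the NF-kB subunit Rel (70.6 (46.5 to 103) and 143 (115 to 175) CPM), and 0 lower, with a median of 0.09. Spi1, the myeloid master regulator PU.1, had 581 and 435 CPM, Id2 586 and 512 CPM and Cbfa2t3 306 and 261 CPM. These last 3 were not called, and of 20 tested cDC2 markers 1 was higher (Ltb, 54.9 (34 to 84) and 109 (85.2 to 138) CPM) and 2 lower (S100a4 and Ccl9). Ltb was not called without mixed members.

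Signs of maturation were scarce. Of 15 tested genes of costimulation and checkpoints 2 were higher and 0 lower, with a median of 0.46. Cd83, a surface marker of mature dendritic cells, had 5.23 (0.63 to 18.9) and 32.3 (19.97 to 49.3) CPM in 2 of 40 and 14 of 70 cells, and Pirb, an inhibitory receptor for class I, had 62.8 (40.2 to 93.4) and 129 (103 to 159.8) CPM. Neither was called without mixed members (log2 ratios 1.82 and 0.83). Cd86, a ligand of CD28, had 34 and 24.6 CPM, Cd40 15.7 and 24.6 CPM and Cd80 3 UMIs at each age. The rule bars cells with 10 or more UMIs of Ccr7, Fscn1 and Ccl22, so mature cells are outside it by construction.

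Few cytokines were found. Of 35 cytokine and chemokine genes 10 were tested, 2 were higher (Ccl6, 241 (194 to 295) and 387 (341 to 438) CPM, and Ltb) and 1 lower (Ccl9), with a median of 0.51. Il6, Il10, Il12a, Il12b, Il23a and Il1a were at 0 UMIs in both libraries, and Il1b had 13.1 and 36.9 CPM in 2 of 40 and 9 of 70 cells. Of 22 tested migration and adhesion receptors 1 was higher, Itgb7, the beta chain of gut and skin homing integrins (183 (143 to 231) and 299.6 (259 to 345) CPM), and 0 lower, with a median of 0.28. Cx3cr1, the fractalkine receptor, had 102 and 84.5 CPM. Of 20 tested pattern recognition receptors none was called in either direction, with a median of 0.41. Clec4b1 had 212 and 258 CPM, Clec12a 146 and 131 CPM and Tlr2 15.7 and 35.3 CPM.

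Stress, hormone and metabolic lists gave 0 to 3 calls each, to be read against 2.12% higher and 1.23% lower over all genes tested. Of 12 tested glucocorticoid response genes 1 was higher (Ddit4), with a median of 0.38. Fkbp5, a standard glucocorticoid target, had 28.8 and 44.6 CPM, and Tsc22d3 102 and 135 CPM. Of 19 tested NF-kB targets 2 were higher, Rel and the inhibitor Nfkbia (115 (83.6 to 154) and 194 (161 to 231) CPM). Of 17 tested immediate early genes 2 were higher (Nfkbia and Btg2) and 1 lower (Egr1, 54.9 and 18.4 CPM, in 3 and 6 cells). Of 16 tested lipid genes 2 were higher and 1 lower: Apoe had 173 (134 to 219.6) and 301 (260.5 to 346) CPM, while 70 of the 79 Lpl UMIs at 9 weeks lay in 1 cell and Fabp4 was not called without mixed members. Of 25 oxidative phosphorylation genes 3 were lower (Atp5b, Atp5g1 and Cycs), 23 had a ratio below 0 and the median was -0.26, and without mixed members 1 was lower, Cycs (290.3 (239 to 349.6) and 177 (146 to 212) CPM). The median of the same genes was -0.13 in cDC1, -0.25 in C1q macrophages and -0.11 in monocytes. None of 14 tested glycolysis genes was called.

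A minority of cDC2 was in cycle at both ages. With cells thinned to 2000 UMIs, 3 of 40 had at least 2 UMIs over 11 mitotic genes at 6 weeks, 7.50% (1.57 to 20.4), and 5 of 70 at 9 weeks, 7.14% (2.36 to 15.9), a ratio of 0.95. Without thinning these were 6 cells (15.0%) and 13 cells (18.6%). In cDC1 the thinned share was 17.2% (11.5 to 24.4) and 18.4% (15.8 to 21.3), in C1q macrophages 4.17% and 6.87%, and in endothelial cells 0.60% and 1.04%. No difference between the ages was detectable in cDC2. Of 16 tested mitosis genes 5 were higher (Top2a, Birc5, Ube2c, Nusap1 and Prc1) and the median was 0.94. The 6 and 13 cells in cycle without thinning held 91.8% and 95.7% of the UMIs of the mitosis list. Ube2c was found in 7 cells at 9 weeks, with 61.4% of its UMIs in 1 cell. Top2a had 47.1 (27.9 to 74.4) CPM in 5 cells and 135 (108 to 167) CPM in 10 cells. With the cycling cells left out, which are chosen by such genes, Ube2c and Hist1h2ae had log2 ratios of -0.21 and -0.029. Of 14 tested replication genes 0 were higher and 1 lower, the helicase subunit Mcm2 (41.8 and 10.8 CPM), which was not called without mixed members.

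Some transcripts differed between the libraries in every class that was examined. S100a8 and S100a9, which neutrophils make in large amounts, went from 0 and 1 UMI to 197 (164 to 234) and 317 (275 to 363) CPM in cDC2. After thinning, 0 of 40 and 27 of 67 cDC2 had a UMI of either gene, 40.3% (28.5 to 53) at 9 weeks, and the share rose from 1.02% to 28% in adrenocortical cells and from 2.80% to 30.8% in cDC1. In C1q macrophages it was 1.64% and 38.6%. The highest cDC2 at 9 weeks had 244 UMIs of S100a8 and S100a9 and is a mixed member. Over the 12 neutrophil markers 1 cDC2 had 286 UMIs at 9 weeks. Their summed level was 2.62 CPM at 6 weeks and 616 CPM at 9 weeks, or 3.28 and 184 CPM without mixed members. The transcripts Gm42418 and AY036118, which overlap ribosomal RNA, fell in cDC2 from 3345 (3164 to 3534) to 1180.1 (1098 to 1267) CPM and from 929 (834 to 1030.3) to 355 (311 to 404) CPM, and Gm42418 had 2349 and 744 CPM in cDC1 and 3514 and 1087 CPM in adrenocortical cells. The nuclear RNA Malat1 had 5709.7 and 9968 CPM in cDC2, 9992 and 14882 CPM in cDC1 and 15757 and 26836 CPM in adrenocortical cells. The part of these library differences in the other results was not tested.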

How the data were processed

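The data were droplet single-cell RNA counts (Chromium 3' v3.1, per the labels' protocols) from 2 libraries. The authors deposited whole-number UMI counts per gene and cell. Cell Ranger 6.0.1, mm10 and Seurat are named per the submitters' processing notes, and for the annotation release the sources used here give none.

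Cells with at least 500 genes and at most 25% mitochondrial UMIs were kept: 8608 of 8880 barcodes at 6 weeks and 10527 of 10812 at 9 weeks. Counts were summed over 32245 gene symbols. Doublets were called with Scrublet in scanpy 1.11.5 (475 and 586 cells) and kept, with removal as an alternative. Other cell classes were taken by UMI rules of the same kind. UMIs were summed over the cDC2 of each library and scaled to CPM, with exact Poisson 95% intervals. Before log2 ratios (9 weeks over 6) were taken, 5 CPM was added as a pseudocount, and the ratio ranges come from the bounds of both intervals. Shares have exact Clopper-Pearson intervals. With 1 library per age no test was made and no p-value is given.

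Named genes were the 12 largest ratios each way among genes of at least 50 CPM, 30 UMIs and 10% of cells at the higher age, an absolute log2 ratio of 1 or more and at least 20% of the level in every other class, without mitochondrial, ribosomal, haemoglobin, immunoglobulin, T cell receptor and unnamed genes. Genes of the 32 lists are named with them. The members and lists were chosen with earlier results of these data known. Alternatives changed the thresholds of the rule, the doublets, the pseudocount, the filter and the scaling. The calling of genes and the thinning were tested on simulated counts. These had no spread between cells, so they cannot show calls that rest on single cells or mixed members. Tables were handled in pandas 2.3.3 with numpy 2.4.6 under Python 3.11.15, intervals came from scipy 1.17.1 and plots from matplotlib 3.10.9. A few genes counted in the lists are not reported here by name.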

Additional observations from a re-analysis of the deposited data

How the results depend on the processing

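The ratio of cDC2 shares stayed between 1.31 and 2.16 and the ratio of cycling shares between 0.61 and 1.43 over the alternatives. The rule applied to cells thinned to 4000 UMIs gave no cycling ratio, since no cDC2 at 6 weeks was in cycle there. The 117 genes higher at 9 weeks became 8 under that thinned rule, where 1162 genes were tested. The 68 genes lower at 9 weeks became 202 with H2-Ab1 of at least 20 UMIs, 115 with 1 UMI of Flt3, Cd209a and Clec10a, 15 under the thinned rule, 26 without mixed members and 34 without each gene's highest cell. The last 2 settings were chosen after seeing the data. The log2 ratio of Ly6d turned to 0.44 without doublets, 2.02 with H2-Ab1 of at least 100 UMIs, 0.33 without mixed members and 0.39 without the highest cell. Under the thinned rule Gbp2 turned to -0.80, Cdk4 to 3.87 and the median of the monocyte markers to -0.072. With cycling cells left out, Hist1h2ae turned to -0.029 and Ube2c to -0.21. Except for the settings whose construction leaves fewer cells or genes, the cause was not tested. The 23 named genes kept their direction in 381 of 391 values over 17 settings. No paired analysis was possible because each age had 1 library, and for the same reason no replicate could be left out.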

Other observations

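Of the cells that missed the rule only by C1q, 7 of 16 at 6 weeks and 16 of 63 at 9 weeks had a Cd209a UMI, with a median of 113 and 171 C1q UMIs over all of them. Of the p53 and senescence list, 6 genes were tested in cDC2, 2 were higher at 9 weeks (Btg2 and Cdkn1b) and 0 lower, with a median log2 ratio of 0.27. Of 7 tested mature dendritic cell markers, 2 were higher (Birc2 and Cd83), with a median of -0.16. Ly6d was the lower call among 3 tested plasmacytoid cell markers, and the 10 genes of that list summed to 1130 and 401 CPM, or 269 and 378 CPM without mixed members.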
